A study of Mus musculus with 6 samples.

Results

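The genes described here are those of the IL-6 cytokine family and its signal in mouse 3T3 fibroblasts. They encode 4 ligands (Il6, Il11, Lif and Clcf1), 4 receptor chains (Il6st, Lifr, Osmr and Il11ra1), the transcription factor Stat3 and the feedback inhibitor Socs3. They were chosen by gene name, with earlier results of these data known, and are 10 of the 41819 genes in the deposited count table. The cells were 1 clone of 3T3 fibroblasts transduced with a lentivirus that carries a puromycin resistance gene and, under the doxycycline-inducible TetOne promoter, human PARG cDNA and the fluorescent protein mClover3, which the labels call cleavable and the methods place behind an internal ribosome entry site. PARG is the hydrolase that removes poly(ADP-ribose) chains from proteins. In the hPARG group, 3 cultures received 500 ng/ml doxycycline for 72 h, and in the control group 3 cultures of the same clone grew for 72 h without doxycycline. The labels speak of wells of a 6-well plate and the methods of 10 cm dishes, so the word culture is used here, and the labels also tag the cells as malignant. No cells without the cassette were given doxycycline among these samples, so doxycycline and hPARG cannot be told apart.

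Cytokines of the IL-6 family bind receptors that share the signal-transducing chain encoded by Il6st and that differ in their other chains, which decide which cell answers which ligand. Ligand binding activates JAK kinases, which phosphorylate STAT3, and STAT3 then drives genes that include Socs3, whose product binds the receptor complex and shuts the signal down. Fibroblasts are known sources of IL-6 and LIF, whose genes respond to NF-kB, C/EBP and AP-1 factors.

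Poly(A) RNA was sequenced, and between 21619908 and 25263818 counts per culture were assigned to genes. Levels are given as CPM, counts set to a common library total after TMM scaling (a correction for library composition), and levels of different genes are compared only in RPKM, which also divides by gene length. A floor of 3 counts stood at between 0.117 and 0.141 CPM, which covers counting error only. The cultures numbered 2 stood apart from the rest: in a principal component analysis their scores on the leading axis (42% of the variance) were 21.6 in control and 24.7 in hPARG. Control culture 3 lay at the other end, at -27.4, and the remaining cultures ran from -10.4 to -3.17. For the genes and lists the results turn on, values are therefore also given with both cultures numbered 2 left out.

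The fibroblast label was checked against marker genes. Vim, which encodes the intermediate filament vimentin, stood at 1522 ± 141 RPKM in control and 1574 ± 140 in hPARG (SD, n = 3). S100a4 stood at 1344 ± 398 and 1434 ± 471 RPKM. Dcn, the proteoglycan decorin, had 13, 3 and 15 counts in control cultures 1 to 3 and 2, 4 and 3 in hPARG cultures 1 to 3. The groups overlapped, and this fibroblast marker was low in every culture and not tested. Of the 10 fibroblast markers 9 were tested, 0 were called by edgeR or DESeq2 and 4 had an unadjusted p under 0.05 in edgeR, against 3.95% of all tested genes. Of these 4, Col1a1 (log2 fold change 0.58), Col3a1 (0.39) and Thy1 (0.30) were higher in every hPARG culture than in any control culture, and Pdgfra (-0.40) was lower. Without the cultures numbered 2, Col1a1 had an FDR of 0.00674 in edgeR at a log2 fold change of 0.63, under 2-fold, and with 1 culture left out its FDR lay between 0.476 and 1.00. The summed level of the 10 markers was 7820, 8400 and 7220 CPM in control cultures 1 to 3 and 8450, 9530 and 8310 CPM in hPARG cultures 1 to 3. Leukocyte genes summed to between 5.29 and 9.25 CPM, most of it from Lyz2 (4.55 ± 1.22 RPKM in control and 4.26 ± 1.13 in hPARG), with Cd68 at 0.613 ± 0.156 and 0.520 ± 0.156 RPKM. Adgre1 was at 0 in all 6 cultures, and Ptprc, Csf1r and Itgam had at most 5, 8 and 8 counts. Endothelial genes summed to at most 1.37 CPM and epithelial genes to at most 0.66 CPM. Kdr was the endothelial gene with the highest mean RPKM over all 6 cultures, with 4 to 22 counts. In control cultures Cdh5 had the higher mean, 0.0853 RPKM against 0.0801 for Kdr. Cdh5 had 10, 6 and 11 counts in control and 3, 4 and 5 in hPARG cultures 1 to 3, lower in every hPARG culture and not tested. Pecam1 and Tek had at most 3 counts. Of the epithelial genes, Krt18 had 2 to 7 counts, Cdh1 1 to 10, and Epcam and Krt14 at most 2 and 1. The part of these marker differences in the values below was not tested.

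In control cultures the level of the 10 genes ran from 16.8 ± 2.38 RPKM for Il11ra1 to 0.156 ± 0.0570 for Il6 (SD, n = 3). Lif (11.6 ± 2.50) and Il6st (11.0 ± 2.15) followed Il11ra1, and the range of Lif overlapped those of Il11ra1 and Il6st. Socs3 (8.49 ± 0.163), Clcf1 (7.30 ± 0.326) and Stat3 (4.44 ± 0.951) came next, each with a range clear of its neighbours. Osmr (1.63 ± 0.109) and Il11 (1.39 ± 0.112) overlapped each other, as did Lifr (0.169 ± 0.0101) and Il6. In hPARG cultures the order differed in the place of Lif, which at 7.40 ± 1.01 RPKM stood after Il6st and Socs3 and overlapped Socs3 and Clcf1, and in Il11, which stood before Osmr with overlapping ranges. Among all tested genes, 68.8% had a lower mean RPKM than Il11ra1, 53.9% a lower one than Lif and 3.22% a lower one than Lifr.

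**Figure D1:**
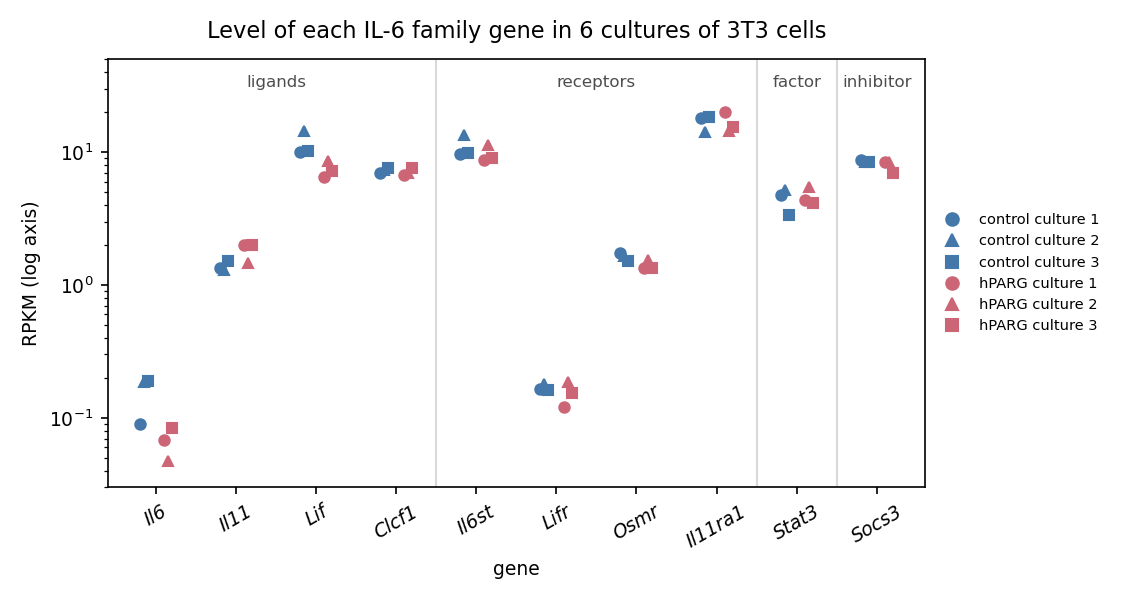
Level of the 10 IL-6 family genes in each of the 6 cultures (points; blue control, red hPARG; marker shape gives the culture number), in RPKM on a log axis, ordered by role. Il11ra1, Lif, Il6st, Socs3 and Clcf1 lie above 6 RPKM in every culture, while Lifr and Il6 lie below 0.2 RPKM.

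Of the 10 genes, 9 had enough counts to be tested in edgeR and Il6 did not. A gene was called when its FDR in edgeR's quasi-likelihood test was under 0.05 and its groups differed by over 2-fold. Of the 9 tested genes 0 were called, and DESeq2 also called 0. Across all tested genes, 10 of 11509 were called (0.0869%), 3 without hPARG culture 1, 5 without hPARG culture 3, 19 without both cultures numbered 2 and 22 by DESeq2. At an unadjusted p under 0.05 there was 1 of the 9, Lif, against 3.95% of all tested genes. For 2 of the 9, Lif and Osmr, the groups did not overlap in CPM, against 9.62% of all tested genes, and both lay lower in hPARG, against 6.00% of all tested genes. With library-size scaling in place of TMM this count was 1, since Osmr then overlapped. The log2 fold change of hPARG over control was below 0 for 6 of the 9 and above 0 for 3, and the 9 had a median of -0.07, beside 0.0038 for all tested genes. With library-size scaling, 7 were below 0, since Il11ra1 changed sign. Without the cultures numbered 2, 7 were below 0 and the median was -0.10, and without hPARG culture 1 there were 5 below 0.

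**Figure D2:**
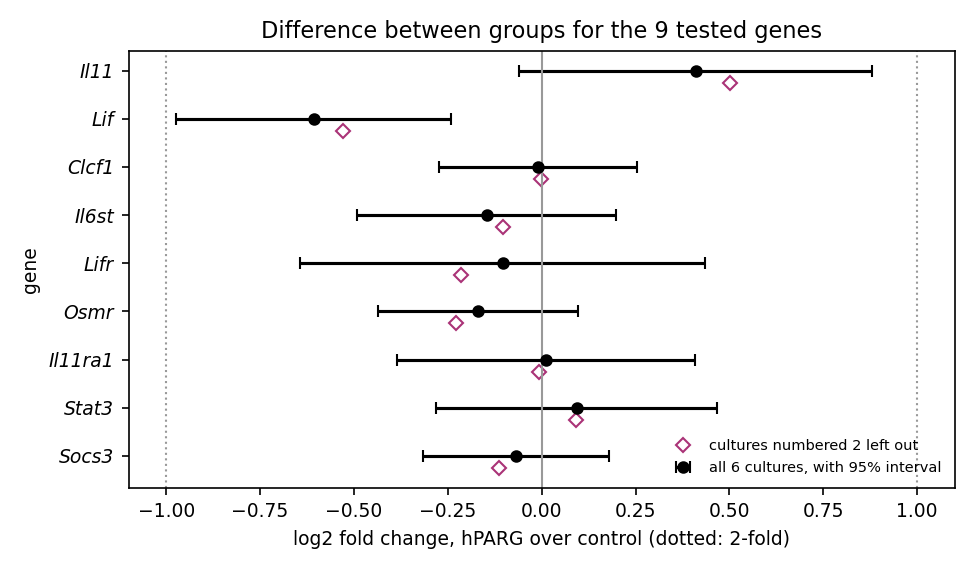
Log2 fold change of hPARG over control for the 9 tested genes from edgeR (filled points, with 95% intervals for each gene alone, not adjusted for the number of genes) and with both cultures numbered 2 left out (open diamonds); dotted lines mark 2-fold. Lif is at -0.61 and Il11 at 0.41, and the other 7 lie between -0.17 and 0.09.

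Lif encodes leukemia inhibitory factor, a secreted ligand of the receptor pair made of the Lifr and Il6st products. Lif (ENSMUSG00000034394, chr11:4257557-4272514, GRCm38, plus strand) stood at 43.6, 61.1 and 46.3 CPM in control cultures 1 to 3 and at 28.9, 37.0 and 33.2 CPM in hPARG cultures 1 to 3. Every hPARG culture lay below every control culture, and culture 2 was the highest of each group. In RNA of whole cultures, fewer cells that make Lif and less Lif RNA per cell cannot be told apart. The means were 50.3 ± 9.44 and 33.0 ± 4.05 CPM (SD, n = 3), and the fitted hPARG level was 65.6% of control. The log2 fold change was -0.61 (SE, the standard error, 0.159, 95% interval for this gene alone -0.97 to -0.24, FDR = 0.713), so the difference did not pass the adjusted threshold. DESeq2 gave -0.60 with FDR = 0.102. With both cultures numbered 2 left out, the values were -0.53 and FDR = 0.0569, and over the fits that each omitted 1 culture the difference ranged from -0.70 to -0.44 on the log2 scale, with FDR from 0.856 to 1.00. Over all 13 alternative settings the FDR of Lif ranged from 0.000612 to 1.00 and was under 0.05 in 1.

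Il6 encodes interleukin-6, which signals through Il6st together with the chain encoded by Il6ra. Il6 (ENSMUSG00000025746, chr5:30013114-30019981, plus strand) had 6, 11 and 11 counts in control cultures 1 to 3 and 4, 3 and 5 counts in hPARG cultures 1 to 3, or 0.234, 0.473 and 0.519 CPM against 0.183, 0.124 and 0.229 CPM. The groups did not overlap, but control culture 1 lay 1 count above hPARG culture 3, and hPARG culture 2 was at the floor. Summed over cultures and scaled for depth, the 28 control and 12 hPARG counts gave a ratio of hPARG to control of 0.442 (Clopper-Pearson 95% interval 0.205 to 0.899, counting error only). When no filter was applied, edgeR gave a log2 fold change of -1.17 (SE 0.611, 95% interval -2.51 to 0.18, FDR = 0.998). Unlike the interval of the summed counts, this one allows for variation between cultures, and it includes 0. The mean level of Il6 over all cultures was 0.111 RPKM, and 1.85% of the tested genes had a lower one.

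**Figure D3:**
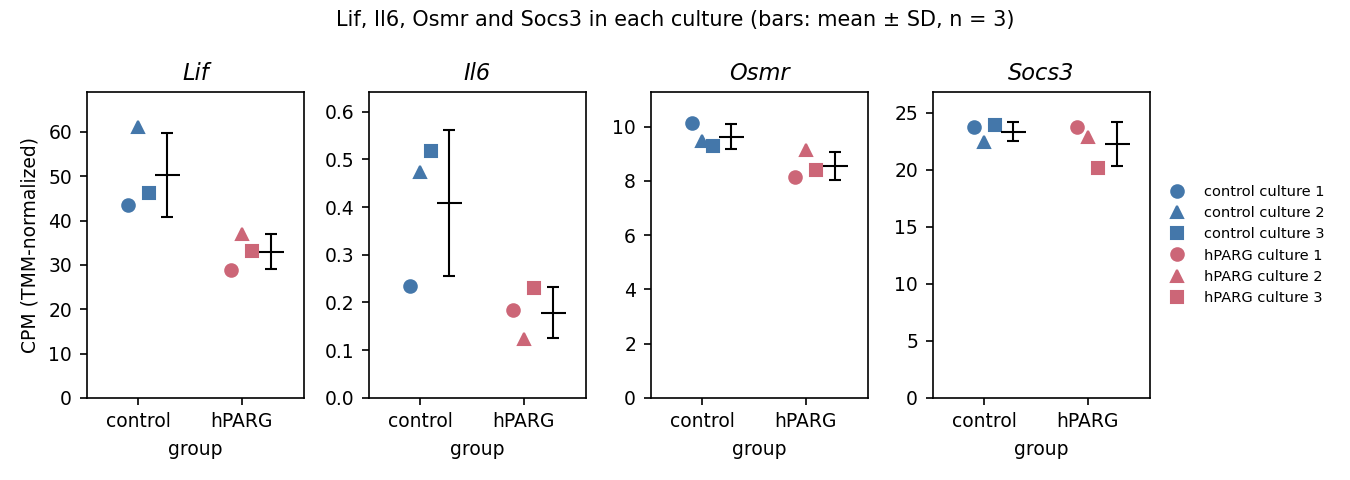
Lif, Il6, Osmr and Socs3 in each culture in TMM-normalized CPM (points; blue control, red hPARG; marker shape gives the culture number), with the mean ± SD of 3 cultures beside them and axes that start at 0. The hPARG points lie below the control points for Lif, Il6 and Osmr, by a narrow margin for Il6 and Osmr (with library-size scaling those of Osmr overlap), and the groups overlap for Socs3.

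Promoter windows of 300 bases (250 before to 50 after the start site, RefSeq, GRCm38.p6) are shown for the 3 genes whose groups did not overlap, Lif, Il6 and Osmr, and for Socs3, a textbook target of STAT3. Of the 10 genes, 9 had a window; Clcf1 had none in the table. Each was searched on both strands for NF-kB (GGGNNTTNCC), STAT (TTCNNNGAA), C/EBP (TTGCNNAA) and AP-1 (TGANTCA) letters, and the matches, which do not overlap each other, are in capitals. The windows are chr11:4257318-4257617 (plus strand) for Lif, chr5:30012864-30013163 (plus strand) for Il6, chr15:6874264-6874563 (minus strand) for Osmr and chr11:117969317-117969616 (minus strand) for Socs3.
Lif: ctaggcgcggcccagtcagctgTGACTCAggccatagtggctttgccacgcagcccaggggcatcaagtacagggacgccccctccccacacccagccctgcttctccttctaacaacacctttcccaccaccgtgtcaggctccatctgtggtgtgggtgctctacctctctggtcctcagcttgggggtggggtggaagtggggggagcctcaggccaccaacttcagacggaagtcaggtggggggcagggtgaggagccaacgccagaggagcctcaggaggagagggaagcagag
Il6: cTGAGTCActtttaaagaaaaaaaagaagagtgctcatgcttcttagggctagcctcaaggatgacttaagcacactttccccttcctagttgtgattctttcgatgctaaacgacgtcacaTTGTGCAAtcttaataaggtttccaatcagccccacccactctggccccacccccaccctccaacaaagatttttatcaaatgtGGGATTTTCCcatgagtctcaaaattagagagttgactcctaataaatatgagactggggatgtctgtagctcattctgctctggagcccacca
Osmr: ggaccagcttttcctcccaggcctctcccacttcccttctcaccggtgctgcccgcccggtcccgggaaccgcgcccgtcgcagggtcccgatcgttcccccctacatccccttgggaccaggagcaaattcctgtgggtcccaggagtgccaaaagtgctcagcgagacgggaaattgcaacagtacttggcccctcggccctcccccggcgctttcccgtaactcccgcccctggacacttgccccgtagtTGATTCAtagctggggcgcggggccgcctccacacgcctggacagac
Socs3: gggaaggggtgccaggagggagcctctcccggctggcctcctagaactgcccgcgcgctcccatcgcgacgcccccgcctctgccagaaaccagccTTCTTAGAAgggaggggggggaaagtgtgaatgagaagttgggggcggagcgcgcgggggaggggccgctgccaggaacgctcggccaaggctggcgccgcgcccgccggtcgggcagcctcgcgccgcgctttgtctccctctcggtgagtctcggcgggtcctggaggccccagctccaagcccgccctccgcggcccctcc
The Lif window holds 1 match, an AP-1 one at -228 to -222 from the start site. The Il6 window holds an AP-1 match at -249 to -243, a C/EBP match at -128 to -121 and an NF-kB match at -44 to -35. The Osmr window holds an AP-1 match at 4 to 10, and the Socs3 window a STAT match at -154 to -146. A further AP-1 match lies in 1 of the 2 windows of Il11, and no match lies in the windows of Il6st, Lifr, Il11ra1 and Stat3. Of all 32851 promoter windows of this length, 7.81% hold the AP-1 letters, 8.3% the STAT letters, 10.8% the C/EBP letters and 4.79% the NF-kB letters. These are matches of letters, and binding was not measured.

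The other ligands showed no call. Il11 encodes interleukin-11, and it stood at 3.00, 2.84 and 3.54 CPM in control cultures 1 to 3 and at 4.54, 3.26 and 4.68 CPM in hPARG cultures 1 to 3. Cultures 1 and 3 of hPARG lay above all controls, and hPARG culture 2 lay within the control range. Its log2 fold change was 0.41 (SE 0.203, 95% interval -0.06 to 0.88, FDR = 0.999), and 0.50 without the cultures numbered 2 (FDR = 0.748). Clcf1 encodes cardiotrophin-like cytokine factor, a ligand of the ciliary neurotrophic factor receptor. It held 336 to 399 counts per culture, at 16.4 ± 1.22 CPM in control and 16.2 ± 1.31 in hPARG, and its log2 fold change was -0.01 (95% interval -0.27 to 0.25). A stretch of 311 exon bases of Clcf1 also belongs to AC109138.7 on the same strand, which had at most 3 counts in any culture.

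Of 8 further ligands and ligand partners of the family, 3 passed the filter, and 0 of the 3 were called or had an unadjusted p under 0.05, by edgeR, and DESeq2 called 0. Ctf1, which encodes cardiotrophin, was the most abundant at 3.34 ± 0.203 RPKM in control and 3.82 ± 1.00 in hPARG, followed by Cntf, the ciliary neurotrophic factor gene, at 1.05 ± 0.744 and 1.12 ± 0.382. Osm, the oncostatin M gene, had 0 counts in every culture, as did Ebi3, Il27 and Il31, which allows up to 3 counts per culture. Ctf2 had at most 8 counts.

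Among the receptor chains, Il6st encodes the chain that all ligands of the family except IL-31 use. It stood at 115, 156 and 122 CPM in control cultures 1 to 3 and at 107, 136 and 114 CPM in hPARG cultures 1 to 3. Culture 2 was the highest of each group, and the groups overlapped. The log2 fold change was -0.15 (SE 0.149, 95% interval -0.49 to 0.20, FDR = 0.999), so a 2-fold difference in either direction lies outside the interval. Without the cultures numbered 2 it was -0.10, without control culture 2 alone -0.0010 and without hPARG culture 2 alone -0.25.

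Osmr encodes the chain that pairs with Il6st for oncostatin M. Its level was 10.2, 9.46 and 9.29 CPM in control cultures 1 to 3 and 8.16, 9.15 and 8.39 CPM in hPARG cultures 1 to 3. The lowest control and the highest hPARG culture were 9.29 and 9.15 CPM, and with library-size scaling they changed places, at 9.11 and 9.29 CPM. The log2 fold change was -0.17 (SE 0.115, FDR = 0.999), and -0.23 without the cultures numbered 2. Lifr, the LIF receptor gene, was near the bottom of the tested genes, with 31 to 52 counts per culture and overlapping groups. Its log2 fold change was -0.10, with a wide 95% interval of -0.64 to 0.43, and 0.04 without hPARG culture 1. Without hPARG culture 2 the value was -0.24, and without both cultures numbered 2 it was -0.21.

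Il11ra1 encodes the chain that binds interleukin-11 and was the most abundant of the 10 genes. Its level was 48.1, 36.9 and 51.9 CPM in control cultures 1 to 3 and 54.8, 38.9 and 44.2 CPM in hPARG cultures 1 to 3. Culture 2 was the lowest of each group, and the groups overlapped. The log2 fold change was 0.01 (standard error 0.171, 95% interval -0.39 to 0.41), and -0.02 with library-size scaling. Its counts are uncertain, because 46.3% of the 50-base stretches of its transcripts also occur in transcripts of Gm13305 and 15.8% in those of Il11ra2. Il11ra2 had 0 counts in every culture. Gm13305, named after its values were seen, had 166 to 313 counts and a log2 fold change of 0.12 (SE 0.252, FDR = 0.999). For the other members, at most 6.77% of these stretches were shared with another gene.

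Of the 5 other receptor genes, 2 were tested and 0 of them were called or had an unadjusted p under 0.05 in edgeR, and DESeq2 called 0. Il6ra, the chain specific for IL-6, stood at 0.757 ± 0.0662 RPKM in control and 0.762 ± 0.0601 in hPARG, with a log2 fold change of 0.04 (-0.02 without the cultures numbered 2). Il27ra had 6 to 18 counts, lower in every hPARG than in any control culture, at a log2 difference of -0.77 ± 0.380 (standard error; FDR = 0.999). Il31ra had 0 counts throughout and Cntfr at most 12.

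Stat3 (chr11:100885098-100939540, minus strand) stood at 31.5, 33.9 and 23.6 CPM in control cultures 1 to 3 and at 29.6, 36.4 and 29.1 CPM in hPARG cultures 1 to 3. The highest and the lowest value of the controls enclosed hPARG cultures 1 and 3, and hPARG culture 2 was the highest of all. The log2 fold change was 0.09 (SE 0.162, 95% interval -0.28 to 0.47, FDR = 0.999), and it was -0.05 without control culture 3 and -0.02 without hPARG culture 2. Stat3 shares 72 exon bases with the oppositely transcribed Stat5a, which had 69 to 116 counts, and whether strand was used in counting is not given in the sources used here.

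Of 20 genes for kinases, adaptors, phosphatases and inhibitors of the pathway, 19 were tested. By edgeR 0 of the 19 were called and 1 had an unadjusted p under 0.05 (3.95% of all tested genes did), and DESeq2 called 0. The log2 fold changes ran from -0.30 to 0.25 with a median of 0.05, 5 below 0 and 14 above it (7 and 12 with library-size scaling). Without control culture 3 there were 11 below 0 and without hPARG culture 2 there were 12, with medians of -0.02 and -0.05. The gene with the small p was Socs1, another inhibitor of JAK kinases, at 24.9 ± 2.03 CPM in control and 20.3 ± 1.71 in hPARG (SD, n = 3), lower in every hPARG culture, with a log2 fold change of -0.30 (SE 0.115, FDR = 0.999). Jak1, the main kinase bound to Il6st, had the highest level of the list, 32.7 ± 6.94 and 32.7 ± 7.34 RPKM, and Grb2, an adaptor to the Ras pathway, stood at 31.6 ± 3.32 and 32.0 ± 1.92. Socs2 was not tested, with 3 to 11 counts.

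Socs3 (ENSMUSG00000053113, chr11:117966079-117970047, minus strand) stood at 23.7, 22.4 and 23.9 CPM in control cultures 1 to 3 and at 23.8, 22.9 and 20.1 CPM in hPARG cultures 1 to 3. Cultures 1 and 2 of hPARG lay within the control range, and hPARG culture 3 was the lowest of all 6. The means were 23.4 ± 0.830 and 22.3 ± 1.91 CPM (SD, n = 3), with a log2 fold change of -0.07 (SE 0.107, 95% interval -0.32 to 0.18, FDR = 0.999). Without hPARG culture 3 it was -0.00029, and without the cultures numbered 2 it was -0.11. The upper and lower bounds of its interval correspond to differences well under 2-fold.

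Of 18 genes that STAT3 is known to drive in other settings, 16 were tested. By edgeR 0 of the 16 were called and 5 had an unadjusted p under 0.05 (3.95% of all tested genes did), 4 of them lower and 1 higher in hPARG. DESeq2 called 0 of the 16 and gave 1, Cebpd, an FDR under 0.05 at a smaller fold. The log2 fold changes had a median of -0.13, with 14 below 0 (49.1% of all tested genes were) and 12 or 13 below 0 with 1 culture left out. Like the other lists, this one was made with earlier results known, and it shares Cebpb and Cebpd with the list of Il6 regulators. Its counts and their direction are therefore not independent evidence. Cebpd, a C/EBP transcription factor gene, stood at 20.7, 18.6 and 23.6 CPM in control cultures 1 to 3 and at 13.1, 11.6 and 10.6 CPM in hPARG cultures 1 to 3. Every hPARG culture was below every control, with a log2 fold change of -0.84 (SE 0.134, FDR = 0.167 in edgeR and 0.000179 in DESeq2), and -0.90 with FDR = 0.00674 without the cultures numbered 2. The edgeR fits of Cebpd that omitted 1 culture gave FDRs of 0.105 to 1.00. Bcl3, an I-kB family protein gene, had -0.57 (FDR = 0.419), and Cebpb, another C/EBP factor, -0.51 (FDR = 0.766), both lower in every hPARG culture. Fos, an AP-1 subunit gene, was higher in every hPARG culture at a low level, 12 to 19 counts in control and 22 to 30 in hPARG, with a log2 fold change of 0.90 (SE 0.324, FDR = 0.999). The targets with the highest levels were Ccnd1, the cyclin D gene, at 237 ± 45.3 RPKM in control and 206 ± 37.6 in hPARG, and Timp1, a metalloprotease inhibitor, at 151 ± 8.99 and 160.0 ± 17.5, with log2 fold changes of -0.17 and 0.11. With 1 culture left out these ran from -0.31 to -0.04 for Ccnd1 and from 0.05 to 0.21 for Timp1. Icam1 had at most 3 counts and A2m at most 4, so neither was tested.

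Regulators of Il6 transcription and of the decay of its mRNA were the list in which a call was made. The list holds genes whose products favour Il6 expression, such as Nfkbiz, and genes whose products oppose it, such as Nfkbia and Zc3h12a. A direction shared by its genes therefore has no single meaning for Il6. All 12 were tested, and 1 was called, lower in hPARG; over the 5 pathway lists together it was 1 gene, 0 without control culture 1 or 3 or hPARG culture 1 or 3, and 2 without hPARG culture 2. DESeq2 called 2, Nfkbia and Zc3h12a, and 7 had an unadjusted p under 0.05 in edgeR, all lower, against 3.95% of all tested genes. The study counted Nfkbia, Nfkbiz and Zc3h12a among the genes it drew from these same cultures, and the list was made with earlier results known, so these counts and their direction are not independent evidence. Without these 3 genes, 4 of 9 had an unadjusted p under 0.05 and 0 were called. The log2 fold changes of the 12 were all below 0 with TMM, RLE and library-size scaling, beside 49.1% of all tested genes, and had a median of -0.42, beside 0.0038. Without the cultures numbered 2, 10 of the 12 were below 0, and with 1 culture left out 10 to 12 were, the exceptions being Rc3h1 and Zfp36 (-0.02 each with all cultures). Of the AP-1 genes, the list holds Fosl1 and Jun and not Fos, which had a log2 fold change of 0.90. For 7 of the 12 the groups did not overlap, all lower in hPARG, against 6.00% of all tested genes that were lower in this way, and for 4 of the 9 without those 3 genes.

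Nfkbia, which encodes the inhibitor that holds NF-kB in the cytoplasm and is itself an NF-kB target, fell in hPARG. Its level was 67.9, 64.5 and 73.2 CPM in control cultures 1 to 3 and 35.7, 29.9 and 29.4 CPM in hPARG cultures 1 to 3. The lowest control stood well above the highest hPARG culture, and the log2 fold change was -1.11 (SE 0.115, FDR = 0.0216). The FDR was 0.147 without control culture 1, 0.0849 without control culture 3, 0.0754 without hPARG culture 1 and 0.22 without hPARG culture 3, so the call was lost without any 1 of these 4, while the log2 fold change with 1 culture left out lay between -1.21 and -1.06. Without the cultures numbered 2 the FDR was 0.000245.

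Zc3h12a encodes the ribonuclease Regnase, which degrades Il6 mRNA. It stood at 16.6 ± 1.41 CPM in control and 7.46 ± 1.36 in hPARG (SD, n = 3), with a log2 fold change of -1.15 (SE 0.154, FDR = 0.062) and, without the cultures numbered 2, -1.37 (FDR = 0.000245). With 1 culture left out its FDR lay between 0.0206 (without hPARG culture 2) and 0.558. Nfkbiz encodes an I-kB family cofactor needed for Il6 transcription. It stood at 33.2 ± 3.44 and 16.6 ± 2.06 CPM, with a log2 fold change of -1.0 (SE 0.132, FDR = 0.062). Without the cultures numbered 2 the log2 fold change was -0.88 (FDR = 0.00428), and with 1 culture left out the FDR lay between 0.0926 and 0.347. DESeq2 gave Nfkbiz a log2 fold change of -0.99 with FDR = 1.39e-07, just under 2-fold. Cebpd and Cebpb, which belong to this list as well, are given above, and Cebpb had its highest level, 121 ± 6.55 RPKM in control and 83.0 ± 16.0 in hPARG. Fosl1, an AP-1 subunit gene, followed at 59.5 ± 3.89 and 46.3 ± 6.21 RPKM, lower in every hPARG culture, with a log2 fold change of -0.33 (SE 0.114, FDR = 0.999).

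**Figure D4:**
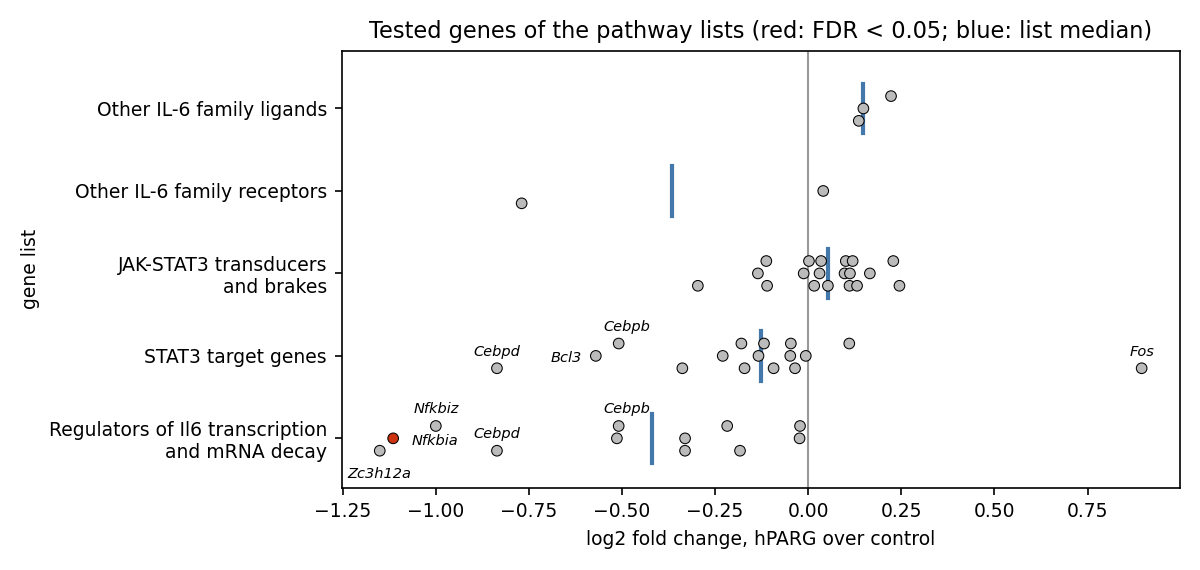
Log2 fold change of hPARG over control for each tested gene of the 5 pathway lists (points; red FDR under 0.05 in edgeR, grey not), with the median of each list as a blue line; Cebpb and Cebpd belong to 2 lists. The regulators of Il6 all lie below 0 (10 of 12 without the cultures numbered 2), while the transducers and brakes lie between -0.30 and 0.25. The regulators include genes whose products favour Il6 expression and genes whose products oppose it.

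In TMM-scaled CPM, culture 2 deviated from the mean of cultures 1 and 3 in the same direction in both groups for 7 of the 9 tested genes, beside 81.8% of all tested genes. Set against the mean of cultures 1 and 3, culture 2 was higher by a log2 difference of 0.44 in control and 0.26 in hPARG for Lif, 0.40 and 0.30 for Il6st and 0.32 and 0.31 for Stat3. It was lower for Il11ra1, by -0.44 and -0.34, and for Il11, by -0.19 and -0.49. The merged exon length was 9527 bases for Stat3, 11099 for Il6st and 10776 for Lifr, which were higher in both cultures numbered 2, and 2081 for Il11, which was lower in both. Osmr, the longest at 12113 bases, was lower in control (-0.04) and higher in hPARG (0.14), and Socs3 (2891 bases) had mixed signs as well. Of the genes between these lengths, Lif (4350 bases) was higher in both, and Il11ra1 (4471 bases) and Clcf1 (3806 bases; -0.08 and -0.09) were lower in both. The part of exon length in these differences was not tested.

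**Figure D5:**
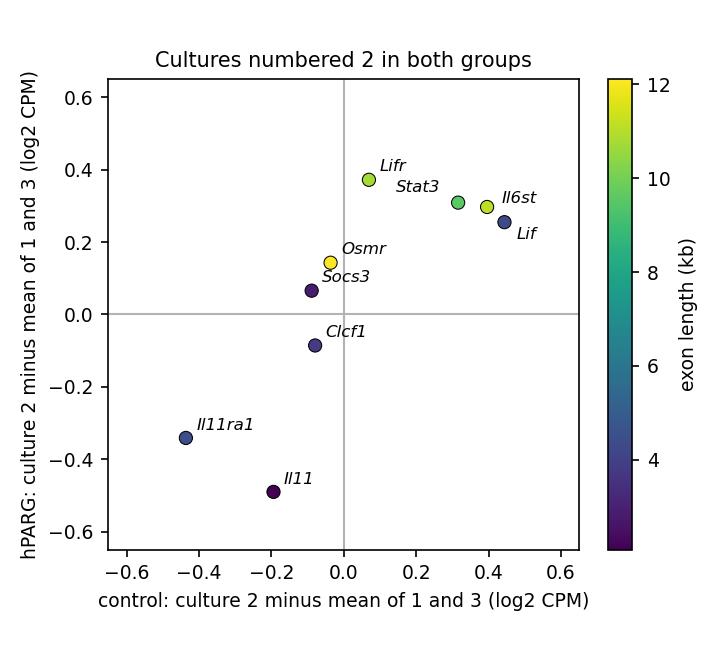
For the 9 tested genes, log2 CPM of culture 2 minus the mean of cultures 1 and 3, in the control group (horizontal) and the hPARG group (vertical), coloured by merged exon length in kb. Lif, Il6st, Stat3 and Lifr were higher in both cultures numbered 2, and Il11, Il11ra1 and Clcf1 lower in both.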

How the data were processed

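RNA-seq of 6 cultures was analysed, 3 per group, grouped by sample label. The authors mapped paired-end poly(A) reads to GRCm38 with CLC Genomics Workbench and deposited counts per gene as whole numbers without normalization, and RPKM values, made by the authors from counts, gene length and library total. The authors' own comparison (fold changes, p-values, FDR and group means) and 12 further per-sample columns (CPM and TPM) were not used. The 10 genes and the gene lists were chosen with earlier results of these data known.

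Genes were kept with filterByExpr (minimum count 10, 11509 genes), TMM-scaled, and tested by edgeR 4.0.16 under R 4.3.3 (functions glmQLFit, then glmQLFTest), without a replicate term. P-values were adjusted by Benjamini-Hochberg over all tested genes, and genes were called at FDR under 0.05 and more than 2-fold. For the standard error, the size of the log2 fold change was divided by the root of F. The fit was tested on simulated data. Alternatives were DESeq2 1.42.0, RLE and library-size scaling, other filters, FDR alone, a replicate block, each culture left out, and both cultures numbered 2 left out. FDR alone combined with DESeq2, the block or the cultures left out, and FDR alone for the lists, were chosen after seeing the data.

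From each list were named the genes called, up to 4 with the smallest unadjusted p under 0.05, the 2 with the highest mean RPKM, and those not tested. Gene positions and exons are from GENCODE vM21 (GRCm38) and promoters from RefSeq (GRCm38.p6). Log2 CPM, used for the principal components, likeness of patterns and culture 2, had a prior count of 2. Shared stretches are 50-base words of GENCODE transcripts. Total counts per culture, and 3 cultures per group, limit the precision.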

Additional observations from a re-analysis of the deposited data

How the results depend on the processing

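With each culture left out in turn, 3 to 13 genes were called (10 with all cultures), 0 of them among the IL-6 family genes, and 0 to 2 were called in the pathway lists (1 with all cultures). The fall to 3 and 5 genes came without hPARG culture 1 and without hPARG culture 3, and the lists had 0 calls without control culture 1 or 3 or hPARG culture 1 or 3. In all genes and in the lists, 22 and 2 were called by DESeq2, 16 and 3 without a filter on low counts, and 19 and 2 without the cultures numbered 2. FDR alone, a setting chosen after seeing the data where combined with another, gave 52 and 4 genes with DESeq2 and 40 and 4 without the cultures numbered 2. The causes were not tested. With library-size scaling, 1 tested member had groups that did not overlap, Lif, since Osmr then overlapped.

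Replicate numbers were not treated as pairs, since the deviations from the group means had, over genes, an r of 0.0963 for the cultures numbered 1, 0.61 for those numbered 2 and 0.168 for those numbered 3. Of different numbers, control 3 and hPARG 1 reached 0.335, so not every culture correlated best with its own number. With a replicate block, 23 genes and 3 list genes (Nfkbia, Nfkbiz and Zc3h12a) were called, and 330 and 9 passed FDR alone. By FDR alone with the block, 1 IL-6 family gene passed, Lif, at a log2 fold change of -0.60 (FDR = 0.000612). By no other setting did a member pass, and over all settings the FDR of Lif ran from 0.000612 to 1.00 and that of Socs3 from 0.731 to 1.00.

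Lif, Il11, Il6st, Osmr and Socs3 kept their direction in 13 of 13 settings, though Il6st came to -0.0010 without control culture 2 and Socs3 to -0.00029 without hPARG culture 3. The sign of Clcf1, Lifr, Il11ra1 and Stat3, none of them called, held in 10, 12, 9 and 11. At 3 to 11 counts, Il6 is limited by depth.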

Other observations

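The tested genes outside the family with the pattern most like that of Lif over the 6 cultures, by Pearson's r of log2 CPM, were Nrg1 (0.989), Trub1 (0.986), Ncoa5 (0.984), Eaf1 (0.979) and Arl4c (0.979). Nrg1, which encodes the secreted growth factor neuregulin, stood at 42.0, 64.1 and 47.3 CPM in control cultures 1 to 3 and at 31.5, 39.1 and 34.8 CPM in hPARG cultures 1 to 3. As with Lif, every hPARG culture lay below every control, culture 2 was the highest of each group, and the difference did not pass the threshold, with a log2 fold change of -0.54 (FDR = 0.964). For Socs3 they were Rbbp7 (0.987), Kifc1 (0.985), Gm4027 (0.981), Gm9887 (0.965) and Rogdi (0.960), whose log2 fold changes lay between -0.51 and -0.06. The value of -0.51 was that of Gm4027, which in hPARG culture 3 stood at 0.0917 CPM, below the floor of 0.138 CPM. Gm9887 was also low there, at 0.321 CPM. These r values are the highest among all tested genes over 6 cultures that share the same libraries, so they describe these cultures and carry no p. Il6 was not tested and has no such list.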
